A study of Mus musculus with 6 samples.

Results

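Autophagy genes were followed in a mouse podocyte line at rest and under cyclic stretch. The set was a list of 42 genes, chosen by name but with earlier results of these data known. These genes encode the core machinery which builds autophagosomes and the receptors which load them. Of these, 40 were measured among 18193 genes in all. A gene was read from a probe set, the group of short probes for 1 transcript, that carried its symbol alone, and the probe set with the highest mean over all 6 arrays stood for it. The other 2, Optn and Bnip3l, had no probe set with only their own symbol and were not analysed here.

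The cells were SVI, a conditionally immortalized line of mouse podocytes, the epithelial cells that cover the capillaries of the kidney glomerulus. Both groups had been differentiated for 1 to 2 weeks at 38 °C in medium with 10% serum. The 3 unstretched samples were left at rest, and the 3 stretched samples were stretched cyclically in both axes at 0.5 Hz for 3 days, with a linear strain of at most 5%. A single immortalized line in culture is the model here, and the series text speaks of 3 independent batches without saying of what, so a p-value here reflects only how far these arrays differ, a spread that could be technical in part. Values are log2 expression values as deposited, for which signal over background is unknown, and a log2 change is the stretched mean minus the unstretched mean with n = 3 per group. RNA per cell and the share of cells that carry a transcript cannot be told apart in such bulk samples.

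Autophagy encloses cytoplasm in a double membrane, the autophagosome, and delivers it to lysosomes for breakdown. The ULK1 kinase complex starts the process, a class III PI3 kinase complex marks the forming membrane with phosphatidylinositol 3-phosphate, and lipid is supplied by ATG9 vesicles and ATG2 transfer proteins. Enzymes that work like ubiquitin ligases then attach LC3 and GABARAP proteins to the membrane, receptors bind cargo to them, and SNARE proteins and tethers fuse the closed vesicle with a lysosome. Podocytes divide little and are known for a high rate of basal autophagy.

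A gene was called changed at a Benjamini-Hochberg adjusted p under 0.05 in limma over all genes. Of the 40 autophagy genes, 10 passed (25%), 4 of them higher and 6 lower in stretched cells, whereas 14.7% of all genes passed (7.98% higher and 6.76% lower). The balance over all genes, 1452 higher and 1229 lower, turned with the scaling: it was 1147 and 1546 after quantile normalization again, 1191 and 1483 with cyclic loess and 1669 and 1025 with median-centred arrays. The autophagy genes were read by bright probe sets, all but 5 of them at or above the median gene. Among all genes at or above that median 24.8% passed (14.3% higher and 10.5% lower), so the number of calls was close to that of other well-detected genes. The changes were small and went both ways: 22 genes had a positive and 18 a negative log2 change, between -0.63 and 0.44, with a median of 0.08 beside -0.02 over all genes. That median was 0.01 without unstretched replicate 3. The median size of a change, sign aside, was 0.18, against 0.13 over all genes, dim ones included. It was not taken over the brighter genes alone, so these 2 medians are not a like comparison. Without stretched replicate 1 the calls fell to 1 higher and 3 lower, and without unstretched replicate 2 or stretched replicate 2 the higher calls numbered 2.

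The unstretched and stretched values did not overlap in 17 of the 40 genes (42.5%), 8 higher and 9 lower, against 32.6% of all genes (16% higher and 16.6% lower) and 45.9% of those at or above the median. All 10 called genes were among them. Over all genes 46.4% of changes were positive, and 53.8% of those at or above the median. Genes of initiation, of the PI3 kinase complex and of membrane supply had positive changes in 15 of 17 cases, of which 2 passed, while conjugation enzymes, ATG4 proteases and the LC3 and GABARAP proteins had negative changes in 12 of 15 cases, of which 5 passed. These signs depended on the probe set read: with averaged probe sets the counts were 13 of 17 and 11 of 15, and with either other choice of probe set 13 and 12. Under the other scalings of the arrays they were 14 or 15 and 11 or 12. In the first group 8 of the 10 genes with more than 1 probe set had at least 1 of opposite sign, and in the second 5 of 13. Both groups pool roles that were planned apart, and this pooling was not planned. Cargo receptors and fusion genes, with 2 positive and 2 negative changes each, are in neither group. Whether the steps differ was not tested.

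**Figure D1:**
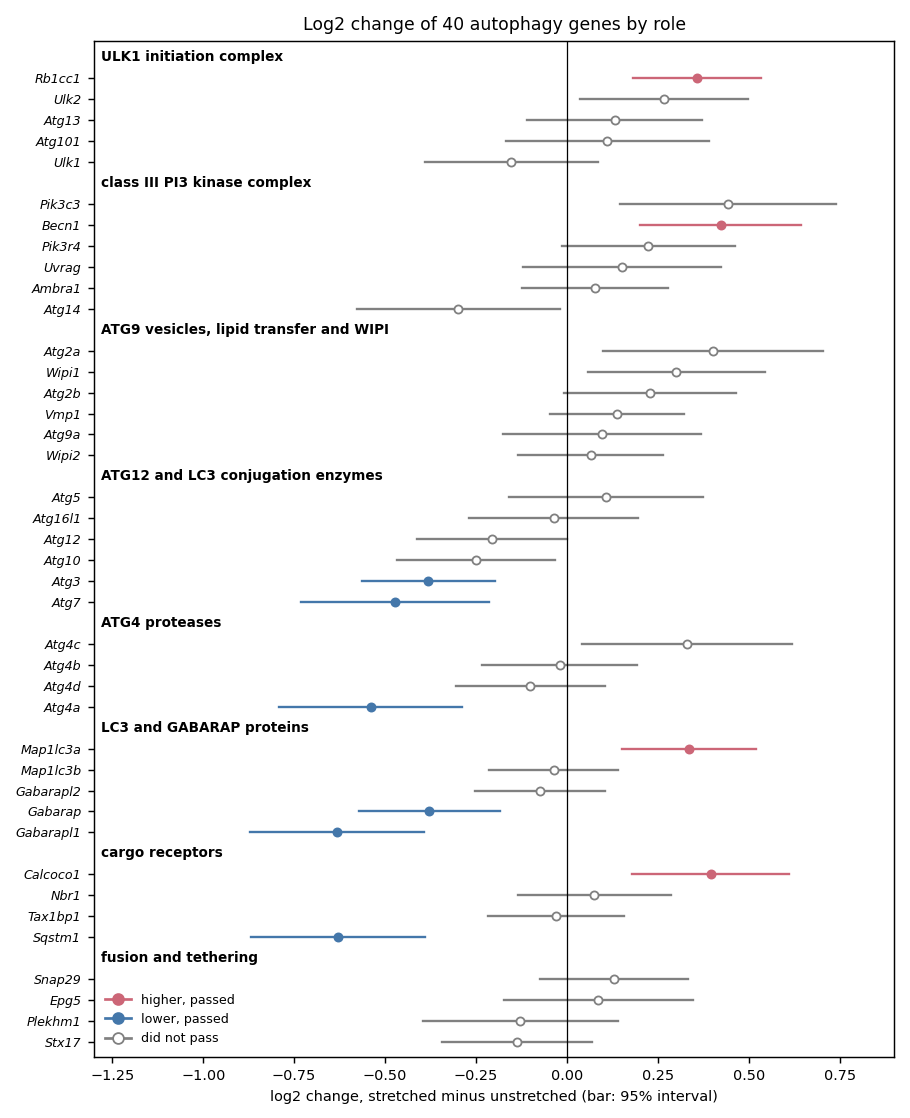
Log2 change of each of the 40 autophagy genes (horizontal axis, stretched minus unstretched, n = 3 per group), grouped by role, with 95% intervals from limma as bars. Filled red points passed as higher, filled blue points as lower and open grey points did not pass. The 4 red points lie in the initiation, PI3 kinase, LC3 and receptor groups, and the 6 blue ones among conjugation enzymes, proteases, LC3 and GABARAP proteins and receptors.

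The 250 bases before the start of 4 genes that fell are shown because their letters differ in the CACGTG element, the E-box that TFEB and related factors bind in many lysosomal and autophagy genes. They are from RefSeq on mouse build GRCm38.p6, read 5′ to 3′ along the gene, with CACGTG in capitals. Atg3 (chr16:45158579-45158828, plus strand) holds the element at bases 94 and 71 before the start and Atg7 (chr6:114670846-114671095, plus strand) at base 132. Sqstm1 (chr11:50210821-50211070, minus strand) and Gabarapl1 (chr6:129532942-129533191, plus strand), which had the largest falls, do not have it in this window.
Atg3: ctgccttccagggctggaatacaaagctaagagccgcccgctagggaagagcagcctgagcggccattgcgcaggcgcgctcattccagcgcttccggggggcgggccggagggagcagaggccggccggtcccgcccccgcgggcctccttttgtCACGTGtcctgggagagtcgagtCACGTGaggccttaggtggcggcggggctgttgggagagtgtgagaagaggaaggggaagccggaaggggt
Atg7: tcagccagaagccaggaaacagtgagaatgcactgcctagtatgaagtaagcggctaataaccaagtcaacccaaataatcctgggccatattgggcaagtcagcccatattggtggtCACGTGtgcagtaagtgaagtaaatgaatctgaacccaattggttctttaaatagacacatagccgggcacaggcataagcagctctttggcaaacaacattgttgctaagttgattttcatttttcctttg
Sqstm1: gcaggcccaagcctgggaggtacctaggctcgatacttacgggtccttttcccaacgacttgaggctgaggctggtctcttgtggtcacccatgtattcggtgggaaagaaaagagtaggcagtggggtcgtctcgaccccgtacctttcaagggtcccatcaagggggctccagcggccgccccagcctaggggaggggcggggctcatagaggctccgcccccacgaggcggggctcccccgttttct
Gabarapl1: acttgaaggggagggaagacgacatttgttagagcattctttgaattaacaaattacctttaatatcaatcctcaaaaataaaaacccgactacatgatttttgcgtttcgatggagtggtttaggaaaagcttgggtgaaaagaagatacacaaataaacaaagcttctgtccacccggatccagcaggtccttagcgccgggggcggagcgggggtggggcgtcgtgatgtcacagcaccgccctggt

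The search covered windows from 250 bases before to 50 after each start, on both strands, and 33 of the 40 genes had such a window. CACGTG was found in 4 of the 33 (12.1%), namely Atg3, Atg5, Atg7 and Atg14, and in 8.09% of all 27025 genes with a window. The longer TCACGTG, which contains CACGTG, was in 3 of them (Atg3, Atg7 and Atg14) and in 4.29% of genes, and the 10-base palindromic CLEAR element, which contains both, in 0 of them and 0.37% of genes. Of the 7 called genes with a window, 2 held CACGTG, and both of these fell. Atg5 (log2 change 0.11, adjusted p = 0.628) and Atg14 (-0.30, adjusted p = 0.151) did not pass in limma. A match describes these letters only.

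The LC3 and GABARAP proteins, the small ubiquitin-like proteins that are joined to the autophagosome membrane, went different ways: of 5, 1 rose, 2 fell and 2 did not pass in limma. Gabarapl1 had log2 values of 10.86, 10.84 and 10.74 on the unstretched arrays and 10.25, 10.34 and 9.95 on the stretched arrays (log2 change -0.63, SE 0.11, 95% interval -0.87 to -0.39, limma adjusted p = 0.00328, 1.55-fold lower). Every stretched value lay below every unstretched one, with stretched replicate 3 the lowest. Gabarap, whose protein acts mainly in late steps of autophagosome closure and fusion, gave 11.28, 11.27 and 11.46 on the unstretched arrays and 10.91, 11.00 and 10.96 on the stretched arrays (log2 change -0.38, SE 0.09, 95% interval -0.57 to -0.18, limma adjusted p = 0.0152, 1.3-fold lower), again without overlap. Leaving out stretched replicate 1 ended the Gabarap call (adjusted p = 0.0675), as did leaving out replicate 3 (0.0509).

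Map1lc3a, which encodes LC3A, went the other way. It read 8.70, 8.83 and 8.83 on the unstretched arrays and 9.09, 9.17 and 9.11 on the stretched arrays (log2 change 0.34, SE 0.08, 95% interval 0.15 to 0.52, limma adjusted p = 0.0212, 1.26-fold higher), and the groups did not overlap. The call was lost when unstretched replicate 1 (adjusted p = 0.0658) was left out, or stretched replicate 1 (0.0610), 2 (0.0818) or 3 (0.0588), and after quantile normalization again (0.0704) or cyclic loess (0.0560). It was also lost when the other probe set was read (0.0683 with shared-probe sets left out). Map1lc3b, which encodes LC3B, the form most used to mark autophagosomes, gave 11.03, 11.07 and 11.14 on the unstretched arrays and 11.03, 11.06 and 11.04 on the stretched arrays. These values overlapped (log2 change -0.04, 95% interval -0.21 to 0.14, adjusted p = 0.816 in limma). Gabarapl2 also overlapped between the groups (log2 change -0.07, 95% interval -0.25 to 0.10, adjusted p = 0.611).

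Differences within an array, a comparison chosen after the values were seen, show how unequally relatives changed, since anything that shifts all probe sets of an array alike drops out. The Map1lc3a minus Gabarapl1 log2 difference was -2.03 ± 0.13 on unstretched and -1.06 ± 0.18 on stretched arrays (SD, n = 3 each), a shift of 0.97. Map1lc3b minus Gabarapl1 shifted by 0.59, from 0.27 ± 0.12 to 0.86 ± 0.19 (SD, n = 3 each), and Map1lc3b minus Gabarapl2 by 0.04. The first 2 of these did not overlap between the groups (exact permutation p = 0.1, two-sided, the smallest this design allows, and 0.146 after Benjamini-Hochberg adjustment over the 19 pairs of relatives compared), and the third did overlap (exact permutation p = 0.3). For Map1lc3a minus Gabarapl1 this lack of overlap was fixed in advance, since Map1lc3a rose and Gabarapl1 fell, each without overlap. It is therefore no further support. The second probe sets of these 2 genes had log2 changes of 0.30 for Map1lc3a and -0.30 for Gabarapl1, the latter a smaller fall. The level of 1 probe set against another has no meaning as an amount of RNA, and the shift alone is comparable.

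Among cargo receptors, which bind ubiquitinated or otherwise marked cargo and LC3 at the same time, 1 gene of 4 rose, 1 fell and the other 2 stayed short of the threshold. Sqstm1, which encodes p62, the receptor for ubiquitinated aggregates, had log2 values of 11.72, 11.54 and 11.72 on the unstretched arrays and 11.21, 11.04 and 10.83 on the stretched arrays (log2 change -0.63, SE 0.11, 95% interval -0.87 to -0.39, limma adjusted p = 0.00341, 1.55-fold lower). The stretched values spread over more than the unstretched ones and all lay below them. Calcoco1, a receptor for endoplasmic reticulum and Golgi membrane, rose: it read 7.10, 6.95 and 6.98 on the unstretched arrays and 7.53, 7.45 and 7.24 on the stretched arrays (log2 change 0.40, SE 0.10, 95% interval 0.18 to 0.61, limma adjusted p = 0.0207, 1.32-fold higher). Leaving out unstretched replicate 2 (adjusted p = 0.0679) ended the Calcoco1 call, as did leaving out stretched replicate 1 (0.0933) or 2 (0.0740). Nbr1, an aggregate receptor related to p62, had a log2 change of 0.08 (95% interval -0.13 to 0.28) and Tax1bp1, which also binds ubiquitin, one of -0.03 (95% interval -0.22 to 0.16), and both overlapped between the groups.

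**Figure D2:**
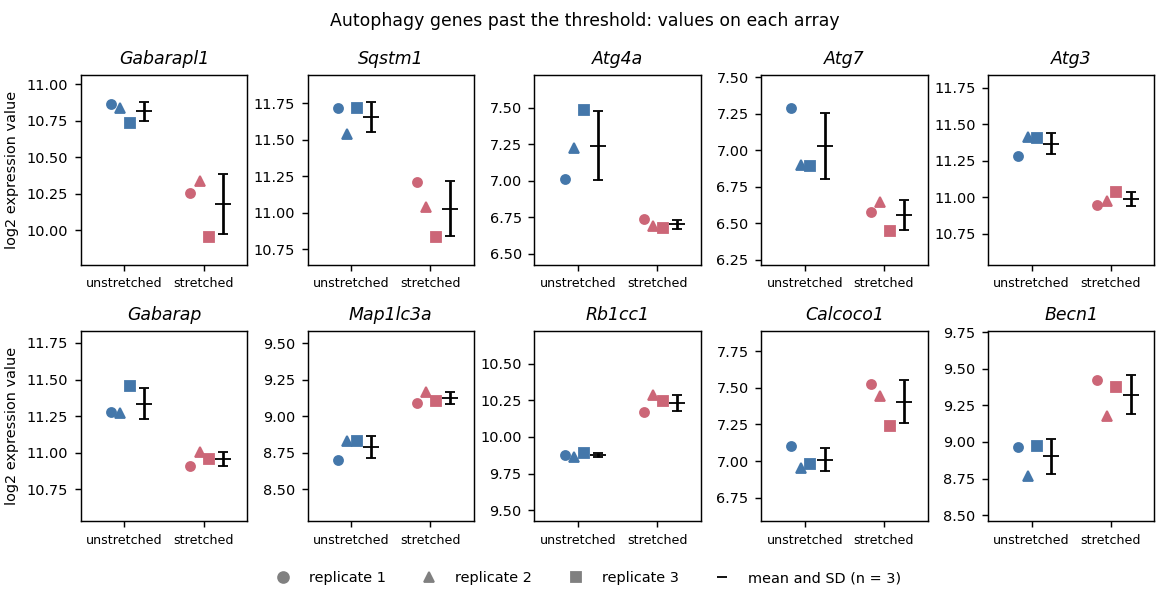
Log2 expression value (vertical axis, each panel spanning 1.3 units around its own centre) of the 10 autophagy genes that passed, on the 3 unstretched (blue) and 3 stretched (red) arrays. Marker shapes give the replicate number, and black bars give the mean and SD of 3. In every panel the groups are apart, by the widest margin of means for Gabarapl1 and Sqstm1.

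The conjugation enzymes attach LC3 and GABARAP proteins to lipid, with ATG7 as the activating enzyme, ATG3 as the conjugating enzyme and the ATG12-ATG5-ATG16L1 complex as the ligase. ATG10 is the conjugating enzyme that joins ATG12 to ATG5. Of the 6 genes, 2 fell, 0 rose (also 0 at an unadjusted p under 0.05) and 4 did not pass in limma, and 5 had a negative change. Atg3 had log2 values of 11.28, 11.41 and 11.40 on the unstretched arrays and 10.95, 10.97 and 11.04 on the stretched arrays (log2 change -0.38, SE 0.08, 95% interval -0.56 to -0.20, limma adjusted p = 0.0114, 1.3-fold lower). All stretched values were lower, and the replicates of each group lay close together. Without stretched replicate 1 the adjusted p of Atg3 was 0.0537.

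Atg7 read 7.29, 6.90 and 6.89 on the unstretched arrays and 6.58, 6.65 and 6.45 on the stretched arrays (log2 change -0.47, SE 0.12, 95% interval -0.73 to -0.21, limma adjusted p = 0.0213, 1.39-fold lower). The groups did not overlap, with unstretched replicate 1 standing above the other two, and the Atg7 call ended without that array (adjusted p = 0.0525) as well as without stretched replicate 1 (0.0628) or 3 (0.0876). Atg10 gave 5.55, 5.22 and 5.35 on the unstretched arrays and 5.16, 5.08 and 5.13 on the stretched arrays, also without overlap, and did not pass (log2 change -0.25, SE 0.10, limma adjusted p = 0.124). Atg12 gave 8.87, 8.82 and 8.92 on the unstretched arrays and 8.81, 8.65 and 8.53 on the stretched arrays, again without overlap and without passing (log2 change -0.21, SE 0.09, adjusted p = 0.181). The ligase subunits Atg5 and Atg16l1 overlapped between the groups (log2 changes 0.11 and -0.04).

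The ATG4 proteases trim LC3 and GABARAP proteins before conjugation and free them from lipid afterwards. Of the 4 genes 1 fell and 3 did not pass. Atg4a, whose protein prefers GABARAP proteins, had log2 values of 7.01, 7.23 and 7.48 on the unstretched arrays and 6.73, 6.69 and 6.68 on the stretched arrays (log2 change -0.54, SE 0.11, 95% interval -0.79 to -0.29, limma adjusted p = 0.00980, 1.45-fold lower). Its stretched values lay close to each other, below an unstretched group that spread widely, and Atg4a kept its call with any 1 array left out. Atg4b, which encodes the protease that is most active on LC3 proteins, had a log2 change of -0.02 (95% interval -0.23 to 0.19), Atg4d one of -0.10 (adjusted p = 0.540) and Atg4c one of 0.33 (adjusted p = 0.127), all in limma. Within the arrays, the Atg4a minus Atg4b difference moved by -0.52, from -0.63 ± 0.35 to -1.15 ± 0.13 (SD, n = 3 each, exact permutation p = 0.1, 0.146 over the 19 pairs).

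Of the 5 genes of the initiation complex, 1 rose, 0 fell (also 0 at an unadjusted p under 0.05) and 4 did not pass in limma. Rb1cc1 encodes FIP200, the scaffold that holds the ULK kinases. It read 9.88, 9.86 and 9.89 on the unstretched arrays and 10.17, 10.28 and 10.24 on the stretched arrays (log2 change 0.36, SE 0.08, 95% interval 0.18 to 0.53, limma adjusted p = 0.0130, 1.28-fold higher). The unstretched values were nearly equal, and all stretched ones lay above them. Without stretched replicate 2 the adjusted p of Rb1cc1 was 0.0574. The kinase gene Ulk2 gave 7.63, 7.26 and 7.48 on the unstretched arrays and 7.78, 7.66 and 7.74 on the stretched arrays, without overlap and without passing (log2 change 0.27, SE 0.10, adjusted p = 0.121). The 3 other Ulk2 probe sets had the opposite sign, with log2 changes between -0.37 and -0.22, the brightest of them almost as bright as the first (means of 7.49 and 7.59). No direction can therefore be given for Ulk2. Its relative Ulk1 overlapped between the groups (log2 change -0.15, SE 0.11, adjusted p = 0.401), as did the adaptors Atg13 (log2 change 0.13) and Atg101 (0.11).

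The class III PI3 kinase complex had 1 gene of 6 that rose, 0 that fell (1, Atg14, at an unadjusted p under 0.05) and 5 that did not pass in limma. Becn1, which encodes its regulatory subunit beclin 1, had log2 values of 8.97, 8.76 and 8.98 on the unstretched arrays and 9.42, 9.17 and 9.38 on the stretched arrays (log2 change 0.42, SE 0.10, 95% interval 0.20 to 0.64, limma adjusted p = 0.0167, 1.34-fold higher). The groups did not overlap on this probe set, but the direction depended on which of the 5 Becn1 probe sets was read: the others had negative changes. Leaving out unstretched replicate 2 (adjusted p = 0.0605) also ended its call, and so did leaving out stretched replicate 1 (0.0772) or 3 (0.0667).

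Pik3c3, the catalytic subunit VPS34, had the highest log2 change of the 40 genes and lay just outside the threshold. It read 7.55, 7.24 and 7.73 on the unstretched arrays and 8.02, 8.09 and 7.73 on the stretched arrays, with unstretched replicate 3 and stretched replicate 3 almost level (log2 change 0.44, SE 0.13, limma adjusted p = 0.0504). Without unstretched replicate 3 its adjusted p was 0.0221 and without stretched replicate 3 it was 0.0377. Pik3r4, the kinase's scaffold, had a log2 change of 0.22 (adjusted p = 0.206), Uvrag, a subunit of the complex in endosomes, one of 0.15 (0.478) and Ambra1, a regulator of beclin 1, one of 0.08 (0.641). Atg14, the subunit that directs the kinase to autophagosome formation, had the only negative change of the complex (log2 change -0.30, adjusted p = 0.151).

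Genes for membrane supply all had positive changes on the probe sets that stood for them, and 0 of 6 passed in limma. Atg2a and Wipi1 were the 2 with an unadjusted limma p under 0.05. Other probe sets of opposite sign existed for Wipi1 (2 of 5), Atg2b (1 of 2) and Vmp1 (1 of 1). Atg2a, a lipid transfer protein gene, read 5.60, 5.79 and 5.42 on the unstretched arrays and 6.16, 6.15 and 5.70 on the stretched arrays, and stretched replicate 3 fell inside the unstretched range (log2 change 0.40, SE 0.14, adjusted p = 0.0771). Wipi1, which encodes a reader of phosphatidylinositol 3-phosphate, read 8.16, 8.11 and 7.85 on the unstretched arrays and 8.33, 8.50 and 8.21 on the stretched arrays, without overlap (log2 change 0.30, SE 0.11, adjusted p = 0.0975). Vmp1, a lipid scramblase of the endoplasmic reticulum, gave 11.88, 11.94 and 11.83 on the unstretched arrays and 12.08, 11.95 and 12.04 on the stretched arrays, also without overlap but by a narrow margin (log2 change 0.14, SE 0.08, adjusted p = 0.320). The log2 changes were 0.23 for Atg2b, 0.10 for Atg9a, the scramblase of the seed vesicles, and 0.06 for Wipi2, which recruits ATG16L1. For these 3 the groups overlapped.

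Of the 4 fusion genes 0 passed in limma, and 0 had an unadjusted p under 0.05 (the lowest was 0.173). Stx17, the SNARE of the finished autophagosome, read 7.41, 7.21 and 7.12 on the unstretched arrays and 7.12, 7.11 and 7.10 on the stretched arrays. The stretched values lay just below the lowest unstretched one (log2 change -0.14, SE 0.09, adjusted p = 0.387). The 3 other Stx17 probe sets also had negative changes. Stx17 passed as lower in limma with averaged probe sets (log2 change -0.27, adjusted p = 0.0332). It also did with its probe set of largest variance (log2 change -0.54, adjusted p = 0.0058). Its partner Snap29 had a log2 change of 0.13, and the tether genes Plekhm1 and Epg5 had changes of -0.13 and 0.09, all with overlapping groups.

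A second reading came from the other probe sets, since 30 of the 40 genes had more than 1 and 9 of the 10 called genes did. Over all probe sets with 1 symbol 13.1% passed (8.18% higher and 4.96% lower), and of the 56 other autophagy probe sets 2 passed as higher and 1 as lower. All 10 probe sets that stood for the called genes passed in this fit too. Of the 15 other probe sets of called genes 9 had the same sign, and 1 of them passed, that of Rb1cc1 (log2 change 1.23, SE 0.23, limma adjusted p = 0.00628 over all probe sets), with a larger change than the probe set that stood for the gene.

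How far the probe sets of a gene matched varied. For Gabarapl1 the second probe set gave a smaller fall (log2 change -0.30, SE 0.10, limma adjusted p = 0.0744 over all probe sets), for Map1lc3a a similar rise (log2 change 0.30, SE 0.10, limma adjusted p = 0.0764 over all probe sets), and all 3 others of Atg7 had negative changes between -0.59 and -0.13. The second probe sets of Atg3, Sqstm1, Calcoco1 and Atg4a had means of only 4.47, 4.63, 4.53 and 5.20. Their log2 changes were -0.05, -0.18, -0.07 and 0.01. Those of Calcoco1 and Atg4a were opposite in sign to the probe set that stood for the gene. Whether their low level played a part was not tested. Read by a probe set without a shared-probe suffix (_a_at, _s_at or _x_at), Sqstm1 (adjusted p = 0.263) and Gabarapl1 (0.0663) did not pass. The suffix of the first Sqstm1 probe set, _a_at, is for probes shared by transcripts of the same gene. The Sqstm1 probe set read instead was the dim one, with a mean of 4.63. With averaged probe sets Atg3 (0.0916) and Calcoco1 (0.276) did not pass. Becn1 was different: its second probe set was about as bright as the first, with means of 8.98 and 9.11, and had the opposite sign (log2 change -0.23, SE 0.09, limma adjusted p = 0.134 over all probe sets). With the 5 averaged, the Becn1 change was -0.05. The first Becn1 probe set has the suffix _s_at, which marks probes that match more than 1 transcript. Unlike _a_at, this suffix is not limited to transcripts of the same gene. The first probe set of Gabarapl1 also ends in _s_at, and that of Map1lc3a in _x_at.

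**Figure D3:**
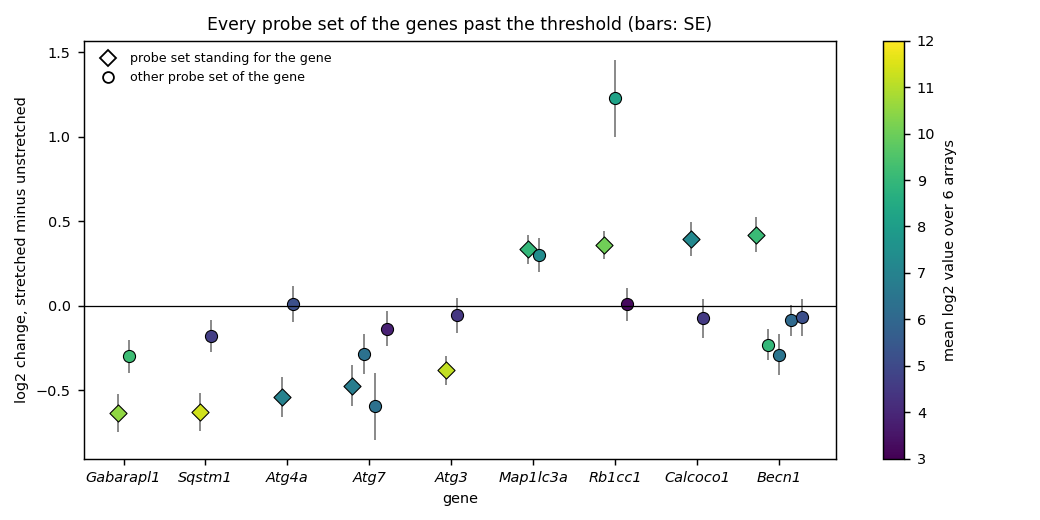
Log2 change (vertical axis, stretched minus unstretched, bars giving the SE) of every probe set of the 9 called autophagy genes that have more than 1. Diamonds stand for the gene, circles are its other probe sets, and colour gives the mean log2 value over 6 arrays. The 4 circles of Becn1 lie below 0 and its diamond above, while both points of Map1lc3a lie above 0.

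In 2 genes that were not called, another probe set passed. A dimmer probe set of Stx17 fell (log2 change -0.54, SE 0.10, limma adjusted p = 0.00527 over all probe sets), in the same direction as the brighter one. For Tax1bp1 a probe set with shared probes rose (log2 change 0.51, SE 0.10, limma adjusted p = 0.00977 over all probe sets), whereas the brighter one had a change of -0.03.

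**Figure D4:**
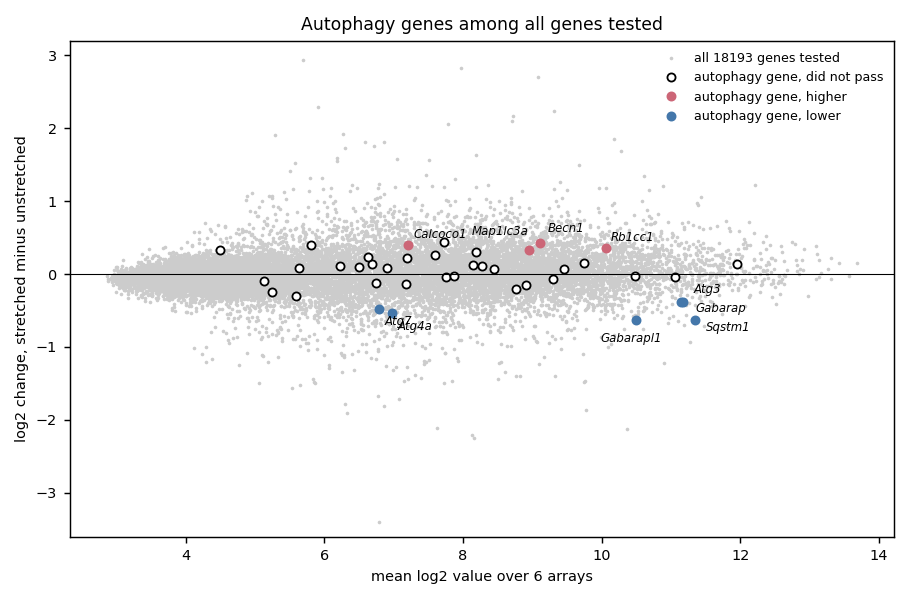
Log2 change (vertical axis) against the mean log2 value over 6 arrays (horizontal axis) for all 18193 genes in grey and the 40 autophagy genes on top, red where higher, blue where lower and open where not passed. The autophagy genes lie between -0.63 and 0.44, inside the cloud of all genes, which reaches from -3.40 to 2.94.

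Beyond the 40, 95 other genes of the pathway were measured in 5 lists, of which 8 rose and 12 fell (21.1%, against 14.7% of all genes and 24.8% of those at or above the median). After quantile normalization again 5 rose and 24 fell, with cyclic loess 5 and 21, and with median-centred arrays 10 and 10. Of 17 other machinery genes 2 rose and 2 fell. Wac, a positive regulator of starvation-induced autophagy, read 9.24, 9.36 and 9.28 on the unstretched arrays and 9.96, 9.84 and 10.14 on the stretched arrays (log2 change 0.69, SE 0.10, 95% interval 0.47 to 0.90, limma adjusted p = 0.00110, 1.61-fold higher). Dapk1, a kinase that acts on beclin 1, also rose (log2 change 0.43, SE 0.12), while Smcr8, a partner of C9orf72 in the control of autophagy, and Tbc1d5, a GAP for RAB7, fell (log2 change -0.35, SE 0.10, and log2 change -0.27, SE 0.08). Each of these calls except that of Wac ended without several single arrays, and that of Wac ended with averaged probe sets (adjusted p = 0.148).

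Of 18 other receptors and mitophagy genes 1 rose and 1 fell. Stbd1, a receptor for glycogen, rose (log2 change 0.50, SE 0.14, limma adjusted p = 0.0310) and Pink1, the kinase that marks damaged mitochondria, fell (log2 change -0.42, SE 0.10, limma adjusted p = 0.0195). Both calls ended without some single arrays, and that of Pink1 with averaged probe sets (adjusted p = 0.185). Of 14 other fusion genes 3 fell (21.4%) and 0 rose in limma. Of all genes 6.76% were called lower, and 10.5% of those at or above the median. At an unadjusted p under 0.05, 8 fusion genes were lower and 0 higher, and 2446 of all 18193 genes were lower. The fusion genes had 13 negative changes and a median of -0.23. Changes were negative in 53.6% of all genes and in 46.2% of those at or above the median. Whether this list differs from other genes was not tested. Rab7, the GTPase of late endosomes and lysosomes, read 11.29, 11.20 and 11.16 on the unstretched arrays and 10.91, 10.95 and 10.79 on the stretched arrays (log2 change -0.33, SE 0.09, 95% interval -0.52 to -0.14, limma adjusted p = 0.0269, 1.26-fold lower). Vps41, a subunit of the HOPS tether, fell (log2 change -0.33, SE 0.08), as did Plekhm2, an adaptor between lysosomes and kinesin (log2 change -0.35, SE 0.09). The Rab7, Vps41 and Plekhm2 calls ended without 3 or more of the single arrays in turn, and with averaged probe sets those of Rab7 (adjusted p = 0.0717) and Vps41 (0.0570) ended as well. Read by its probe set of largest variance, Vps41 had a log2 change of -0.13 (adjusted p = 0.556).

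Nutrient and energy sensing genes, which act upstream of ULK1, had 3 that rose and 5 that fell of 29. Prkaa1, a catalytic subunit of AMPK, read 5.65, 5.67 and 5.54 on the unstretched arrays and 6.36, 6.28 and 6.70 on the stretched arrays (log2 change 0.83, SE 0.11, 95% interval 0.58 to 1.08, limma adjusted p = 8.80e-04, 1.77-fold higher). Lamtor1, which anchors the Rag GTPases and mTORC1 on lysosomes, gave 11.98, 11.98 and 12.07 on the unstretched arrays and 11.46, 11.52 and 11.39 on the stretched arrays (log2 change -0.55, SE 0.08, 95% interval -0.73 to -0.37, limma adjusted p = 0.00162, 1.46-fold lower). Rragd and Sesn1 fell as well (log2 changes -1.71 and -0.64). Neither group overlapped the other in these 4. The Sesn1 fall was seen on a probe set with shared probes: the log2 change was -0.0031 when such probe sets were left out (adjusted p = 0.990) and -0.22 with averaged probe sets (adjusted p = 0.170).

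Transcription factors of autophagy genes included 2 that rose and 1 that fell of 17. Tfeb, the main activator of lysosomal and autophagy genes, read 7.20, 7.28 and 7.23 on the unstretched arrays and 7.21, 7.25 and 7.28 on the stretched arrays and overlapped between the groups (log2 change 0.01, 95% interval -0.17 to 0.19, limma adjusted p = 0.959). Its relatives Tfe3 (-0.27) and Mitf (0.03) overlapped too. These 3 fall outside the rule for named genes and were chosen after their values were seen. Hif1a, the oxygen-sensing factor, and E2f1, a cell cycle factor, rose (log2 change 0.39, SE 0.09, and log2 change 0.29, SE 0.08), and the coactivator Ppargc1a fell (log2 change -1.80, SE 0.20). The E2f1 call ended without 5 of the 6 arrays in turn. That of Hif1a was lost without stretched replicate 1 (adjusted p = 0.0609) and with averaged probe sets (0.156). The Hif1a probe set has the suffix _a_at, for transcripts of the same gene. With shared-probe sets left out the Hif1a log2 change was 0.08 (adjusted p = 0.733).

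**Figure D5:**
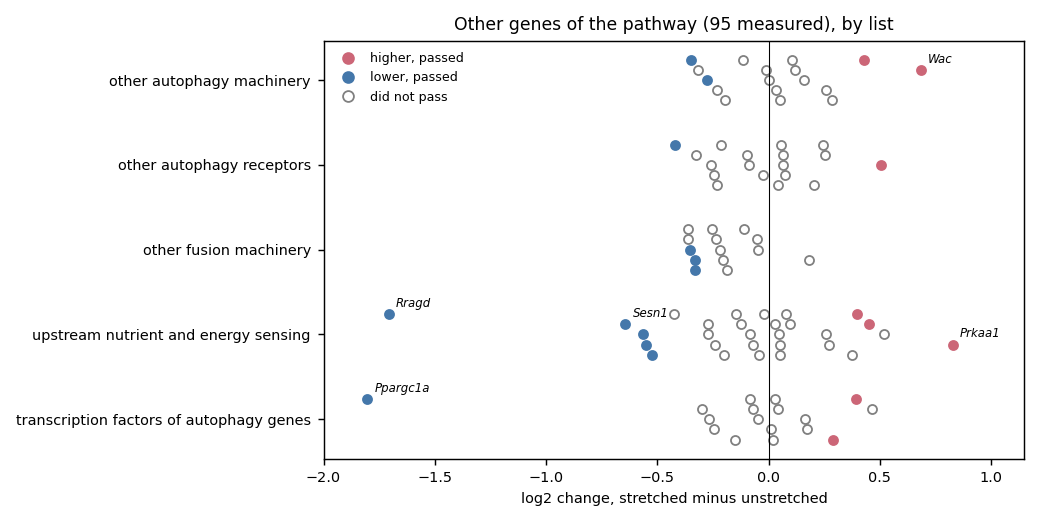
Log2 change (horizontal axis) of 95 other genes of the autophagy pathway in 5 lists, n = 3 per group, with vertical offsets within a list only to separate points. Red points passed as higher, blue as lower, and open points did not pass. In the fusion list 13 of 14 points lie left of 0, where 53.6% of all genes lie, and the lowest points are Ppargc1a and Rragd.

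Several array-level values did not overlap between the groups. The SD of all values on an array was 2.03 to 2.06 on unstretched and 2.08 to 2.10 on stretched arrays and the median 4.96 to 4.98 and 4.92 to 4.96, each without overlap (exact permutation p = 0.1, two-sided, the smallest this design allows). The log2 difference between 3' and 5' control probe sets of beta-actin, a sign of RNA quality, was 1.54 to 1.59 on unstretched and 1.25 to 1.35 on stretched arrays. The same difference for Gapdh overlapped between the groups, at 0.19 to 0.32 on unstretched and 0.06 to 0.25 on stretched arrays (exact permutation p = 0.3). Of 9 macrophage and leukocyte markers 3 fell (Csf1r, Cd68 and Fcer1g) and 0 rose in limma (5 and 0 at an unadjusted p under 0.05). The mean over the list was 5.14 to 5.27 on unstretched and 4.90 to 4.98 on stretched arrays. Of these markers 8 lay below the median gene, with Ptprc, Itgam and Tyrobp at means of 4.20, 3.76 and 4.31. Csf1r, at a mean of 8.63, lay above it. The mean over 10 tubule markers was 5.59 to 5.63 and 5.68 to 5.73, with Cubn the 1 that passed, as higher (log2 change 0.49, limma adjusted p = 0.0173). Below the median gene lay 8 of the 10, whereas Cdh16 and Lrp2 were bright, with means of 10.71 and 10.10. Of 9 mesangial and fibroblast markers 1 rose, Pdgfrb (log2 change 0.41, limma adjusted p = 0.0101). The groups did not overlap in 4 of them (44.4%), 3 higher and 1 lower. The share was 32.6% of all genes and 45.9% of those at or above the median. The mean over this list was 6.12 to 6.22 on unstretched and 6.21 to 6.31 on stretched arrays. Of the 9, 6 lay below the median gene, whereas Acta2 was very bright, with a mean of 13.43. The 8 endothelial markers all lay below the median gene, and 0 passed in limma (1, lower, at an unadjusted p under 0.05). Of 14 podocyte markers 5 lay below the median gene, among them Nphs1 (nephrin) and Tcf21, with values from 3.98 to 5.18, whereas Wt1, Synpo, Actn4, Cd2ap and Kirrel lay above it. Of these 14, Synpo (synaptopodin) fell (log2 change -0.45, limma adjusted p = 0.00412), while Nes (nestin, log2 change 0.57, limma adjusted p = 0.00182) and Vim (vimentin, log2 change 0.35, limma adjusted p = 0.0233) rose. The part of any of these array-level and marker values in the changes described was not tested.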

How the data were processed

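Messenger RNA was measured on Affymetrix mouse arrays, 3 of unstretched and 3 of stretched cells, with groups read from the titles. Each deposited value is a log2 expression value of 1 probe set, made by the authors with RMA per the submitters' processing notes. RMA equalises arrays, so a global shift of RNA cannot be seen, and it compresses dim probe sets. The version of RMA was not given in the sources used here, nor was a genome build. Of 45101 probe sets, 64 controls were left out, and 34945 carried 1 symbol in the platform annotation, which named the genes. All 18193 genes, without a filter on dim ones, went into 1 linear model without covariates (lmFit, then eBayes, limma 3.58.1, R 4.3.3), and the steps were checked on simulated data, where recovery of known changes fell just short of the mark first set, which was then lowered. The autophagy genes and lists were chosen with earlier results of these data known. Named are all autophagy genes, and other pathway genes that passed, at most 4 in lists with over 5 calls. Promoters are RefSeq's. Protein sequences were not used here, so a planned comparison of LC3 and GABARAP proteins was not made. Alternatives were replicate blocks, single arrays left out, other scalings, probe set choices, priors, a filter and a stricter threshold.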

Additional observations from a re-analysis of the deposited data

How the results depend on the processing

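Across 18 alternatives, 56 named genes gave 859 values with the same sign and call, 19 whose sign changed with no call on either side, 108 with a lost call, 14 with a gained call and 2 of a called gene reversed, both of Becn1, at -0.0495 with averaged probe sets and -0.23 with shared-probe suffixes left out where possible. With each array left out in turn, autophagy genes called higher numbered 1 to 6 and lower 3 to 6, their median change was 0.0128 to 0.10, all genes called numbered 1661 to 2639 (872 to 1450 higher, 767 to 1189 lower) and other pathway genes 2 to 9 higher and 6 to 13 lower. After quantile normalization again the median was 0.00535 and the other pathway genes numbered 5 higher and 24 lower, and with cyclic loess 5 and 21. Averaged probe sets gave 2 autophagy genes higher, a median of 0.00313 and 5 other pathway genes higher. Leaving out shared-probe suffixes gave 2 autophagy genes and 5 other pathway genes higher. At an adjusted p under 0.01, autophagy genes numbered 0 higher and 3 lower, other pathway genes 2 and 5, and all genes 1249 (706 higher, 543 lower). With every probe set tested, 4594 passed, 2859 of them higher. The causes were not tested, except that a stricter threshold keeps fewer genes and testing every probe set counts more features.

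Of the 17 alternatives at the 0.05 threshold, Atg4a lost its call in 0, Sqstm1 and Gabarapl1 in 1 (shared-probe suffixes left out) and Map1lc3a in 8, while Pik3c3 passed in 6. Whether replicate numbers pair the samples could not be decided with 3 arrays per group. Deviations of same-numbered arrays correlated at 0.02, 0.15 and 0.28. Unstretched replicate 1 correlated best with stretched replicate 2, while unstretched replicates 2 and 3 correlated best with the stretched array of the same number. With the replicate block autophagy genes numbered 6 higher and 6 lower, and all calls 3102. The gained calls were Atg2a (adjusted p = 0.0151, and 0.0423 with a random block) and Wipi1 (0.0439), whose probe sets had both signs. Precision is limited by 3 arrays per group, and dim probe sets cannot be told from background.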
